A study of Mus musculus with 8 samples.

Results

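The genes described here drive DNA replication and the S phase of the cell cycle. They are 50 mouse genes chosen by name, kept where 2 or more of the 8 libraries reached a value of 10. Of the 50, 48 were found and all 48 met that level, out of 13358 genes that met it in a table of 18438. The member closest to it was Gins1, whose highest values were 70.1 and 66.6. Chaf1a and Pola2 are not analysed here. Spleen T cells of C57BL/6 mice were sorted and sequenced on day 7 of EAE, an autoimmune disease of the nervous system raised with the myelin protein MOG and used to model multiple sclerosis. The 4 groups, with 2 libraries each, were regulatory T cells (Treg, CD4+ CD25hi YFP+) of mice labelled IRE1a-/- (KO), Treg of wild-type (WT) mice, effector T cells (Teff, CD4+ CD25- YFP-) of KO mice and Teff of WT mice. Ern1 encodes IRE1a, which senses unfolded proteins in the endoplasmic reticulum. The labels give neither the age or sex of the mice, nor which cells carry the deletion, nor what drives YFP, and do not tell whether replicate libraries derive from different mice. P-values thus reflect library-to-library spread alone, possibly a technical one.

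As background, replication begins when the origin recognition complex, CDC6 and CDT1 load the ring-shaped MCM2-7 helicase onto DNA in the G1 phase. MCM10, CDC45 and the GINS complex then turn it into a working helicase, polymerases copy both strands behind a sliding clamp, and enzymes of nucleotide synthesis supply the building blocks. Many of these genes are switched on together by E2F transcription factors when a cell commits to division, which makes their mRNA a common readout of cycling cells, such as T cells after antigen contact.

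Promoter sequences are shown for the 4 members with the smallest p-values for KO against WT in Teff, because E2F sites are the feature best known to join these genes. Each runs from 250 bases before to 50 after the start site, 5' to 3' on the gene's strand, from RefSeq on GRCm38.p6. Capitals mark the E2F word TTTNNCGC, with each N being C or G, on either strand. The windows are chr12:24708004-24708303 for Rrm2 (plus strand), chr1:128359656-128359955 for Mcm6 (minus strand), chr4:136172024-136172323 for E2f2 (plus strand) and chr7:13278576-13278875 for Lig1 (plus strand).
Rrm2: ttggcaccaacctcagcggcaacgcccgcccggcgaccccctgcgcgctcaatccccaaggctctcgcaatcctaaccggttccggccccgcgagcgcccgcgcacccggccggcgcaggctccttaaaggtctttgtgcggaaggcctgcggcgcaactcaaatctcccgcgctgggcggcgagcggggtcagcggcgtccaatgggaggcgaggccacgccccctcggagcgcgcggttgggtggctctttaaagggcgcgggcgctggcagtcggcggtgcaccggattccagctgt
Mcm6: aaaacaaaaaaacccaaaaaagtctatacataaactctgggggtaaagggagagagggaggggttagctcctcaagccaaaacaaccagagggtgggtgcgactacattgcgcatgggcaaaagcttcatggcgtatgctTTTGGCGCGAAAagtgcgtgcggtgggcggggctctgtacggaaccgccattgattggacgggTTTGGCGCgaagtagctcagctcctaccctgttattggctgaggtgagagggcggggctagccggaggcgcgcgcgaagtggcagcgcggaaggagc
E2f2: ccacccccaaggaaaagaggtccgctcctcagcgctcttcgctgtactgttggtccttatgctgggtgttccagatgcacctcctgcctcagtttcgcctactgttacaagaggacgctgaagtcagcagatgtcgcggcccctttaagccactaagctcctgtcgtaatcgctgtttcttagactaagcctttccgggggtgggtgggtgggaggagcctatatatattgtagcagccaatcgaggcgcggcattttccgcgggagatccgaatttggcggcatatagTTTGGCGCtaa
Lig1: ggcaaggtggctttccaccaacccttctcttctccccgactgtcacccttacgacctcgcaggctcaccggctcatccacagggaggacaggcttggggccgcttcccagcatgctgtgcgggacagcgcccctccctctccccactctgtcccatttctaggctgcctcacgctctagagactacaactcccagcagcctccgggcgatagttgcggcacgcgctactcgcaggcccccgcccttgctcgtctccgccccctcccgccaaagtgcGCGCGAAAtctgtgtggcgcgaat
The Mcm6 window held 3 matches, of which 1 pair overlaps, while E2f2 and Lig1 held 1 each just after the RefSeq start site. For E2f2 that site lies 120 bases before the start of the principal GENCODE transcript. No match lay in the Rrm2 window, which says only that these letters are not in it. Promoters were found in the table for 39 of the 48 members. The E2F word occurred in 14 of them (35.9%), against 412 of 10232 promoters of tested genes (4.03%). It stood in 6 of the 11 members called lower in KO Teff (Mcm6, E2f2, Lig1, Mcm5, Mcm3 and Cdc6) and in 8 of the 28 others with a promoter. The word CCAAT, on either strand, occurred in 25 of the 39 (64.1%), against 38.6% of tested genes. TTTGAA or TTCGAA, the element called CHR in promoters of mitotic genes, occurred in 5 (12.8%), against 14.6%. A match describes the sequence and shows no binding.

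The deposited values are normalized read numbers per gene, and the 8 libraries summed to between 17504097 and 18751258. All 5 T cell markers found in the table were well expressed in every library. Foxp3, the lineage factor of Treg, had 111 and 117 in KO Treg and 89.1 and 92.2 in WT Treg, against 2.06 and 8.29 in KO Teff and 0 in both WT Teff libraries. Ern1 averaged 342 ± 23.3 in KO Treg and 388 ± 15.7 in WT Treg (SD, n = 2 each), and 455 ± 3.67 in KO Teff and 587 ± 40 in WT Teff. Neither difference was called (limma adjusted p = 0.489 and 0.0902), and gene-level values do not show which part of Ern1 was removed. Fold changes below are log2 of KO over WT, or of Treg over Teff, on the log2(value + 1) scale, which understates changes of weakly expressed genes. A gene was called when limma's adjusted p, over all 13358 genes, was below 0.05.

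The summed level of the replication genes was lower in KO than in WT cells of both types. With each library scaled to a total of 1000000, the 48 members summed to 1580 ± 30.2 in KO Teff and 1849 ± 43.8 in WT Teff, and 1906 ± 19.8 in KO Treg and 2164 ± 18.3 in WT Treg (SD, n = 2 each). The groups did not overlap in either cell type. The members' median log2 fold change was -0.22 in Teff and -0.20 in Treg, where the medians of all tested genes were -0.02 and -0.01. In Teff 40 of the 48 lay below 0, in Treg 39, and 33 lay below 0 in both. Fewer cycling cells and less of these transcripts per cycling cell cannot be told apart in bulk RNA.

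The first question was how Teff of KO mice differed from Teff of WT mice. In KO Teff 11 of the 48 members fell (22.9%) and none rose, by limma. Among all tested genes 5.08% were called lower and 1.84% higher. At an unadjusted p below 0.05, 18 members were lower (37.5%) and 1 higher, against 13.7% and 7.85% of all tested genes. The called members act in E2F control, licensing, the helicase, nucleotide supply, ligation and chromatin, while none belongs to the polymerases, the clamp and its loader, or the checkpoint. They were E2f2, Cdc6, Mcm3, Mcm5, Mcm6, Mcm10, Rrm1, Rrm2, Tk1, Lig1 and Uhrf1. The 2 KO libraries lay below both WT libraries for 26 members (54.2%), as did 27.4% of all tested genes, and above them for Pold1 and Rfc1 (4.17%, against 22.4%).

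The number called depended on single libraries. It was 4 without KO Teff replicate 2, 5 without either WT Teff library, and 7 without KO Teff replicate 1 or any single Treg library. It was 3 when only the 2 Teff groups were fitted.

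**Figure D1:**
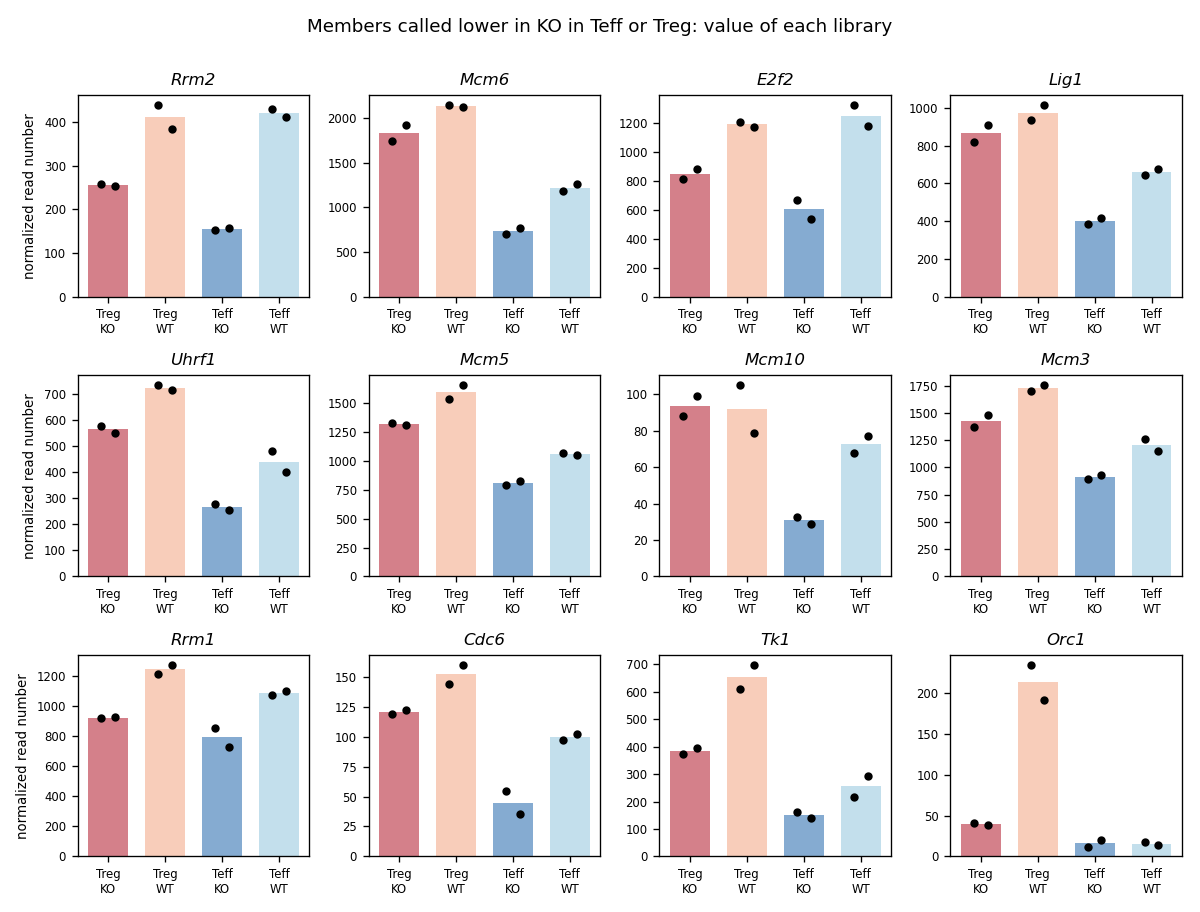
Normalized read number (y axis, from 0) of the 12 members called lower in KO cells of either type, 1 panel per gene, ordered by p in Teff. Points are single libraries and bars the means of 2, for Treg KO, Treg WT, Teff KO and Teff WT from left to right. In Teff all but Orc1 have both KO points below both WT points, and Orc1 is high only in the 2 Treg WT libraries (192 and 235).

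Nucleotide supply held the member with the smallest p. Rrm2, the regulated small subunit of ribonucleotide reductase, which makes deoxynucleotides, lies on chromosome 12 (24708241 to 24714146 of GRCm38). It had 152 and 157 in KO Teff, against 429 and 412 in WT Teff. The KO libraries were thus far below the WT ones and close to each other (log2 fold change -1.44, SE 0.12, limma adjusted p = 0.00149, below 0.05 under all 18 alternatives). Rrm1, the large subunit, had 854 and 729 in KO Teff, against 1077 and 1104 in WT Teff (log2 fold change -0.47, SE 0.09, adjusted p = 0.0284). Tk1, the thymidine kinase of the salvage route, had 162 and 139 in KO Teff, against 217 and 293 in WT Teff (log2 fold change -0.74, SE 0.17, adjusted p = 0.0467). These calls of Rrm1 and Tk1 were lost in 10 and 12 of the 18 alternatives, among them the removal of any single Treg library. Tyms, which makes thymidylate, had 160 and 145 in KO Teff, against 327 and 226 in WT Teff, where the 2 WT libraries differed widely (adjusted p = 0.0916). Dut, which keeps uracil out of DNA, had 459 and 414 against 476 and 533 (adjusted p = 0.302). All 5 members of this group had both KO Teff libraries below both WT ones, as did 27.4% of all tested genes.

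Of the 6 MCM2-7 genes, whose products form 1 ring, 3 fell in KO Teff (50.0%), where 5.08% of all tested genes were called lower. Mcm6 (chromosome 1, 128331590 to 128359664) had 701 and 772 in KO Teff, against 1183 and 1258 in WT Teff (log2 fold change -0.73, SE 0.08, adjusted p = 0.00482, below 0.05 under all 18 alternatives). Mcm5 had 789 and 822 in KO Teff, against 1069 and 1048 in WT Teff (log2 fold change -0.39, adjusted p = 0.0221). Mcm3 had 891 and 928 in KO Teff, against 1256 and 1153 in WT Teff (log2 fold change -0.40, adjusted p = 0.0271). The calls of Mcm5 and Mcm3 were lost without any single Teff library, and that of Mcm3 also without either WT Treg library. Mcm2 had 1400.2 and 1380.4 in KO Teff, against 1649.9 and 2076 in WT Teff, with the WT libraries apart from each other (adjusted p = 0.0998). Mcm4 had 1930.0 and 1879.8 in KO Teff, against 2139.6 and 1962.6 in WT Teff (log2 fold change -0.11, 95% interval -0.26 to 0.05). Mcm7 had 1166 and 1179 in KO Teff, against 1219 and 1157 in WT Teff, groups that overlap (log2 fold change -0.02, 95% interval -0.17 to 0.14). The intervals of Mcm6 (-0.92 to -0.54) and Mcm7 do not meet. No test between subunits was run.

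Origin licensing and helicase activation each had 1 called member, of 4 and 6 (25.0% and 16.7%, against 5.08% of all tested genes called lower). Cdc6, which helps load the helicase and turns over with the cycle, had 54.8 and 35.2 in KO Teff, against 97 and 102 in WT Teff (log2 fold change -1.16, SE 0.23, adjusted p = 0.0307). Mcm10, which helps start the loaded helicase, had 32.8 and 28.9 in KO Teff, against 67.9 and 76.9 in WT Teff (log2 fold change -1.21, SE 0.23, adjusted p = 0.0257). Both calls fell away without KO Teff replicate 2, without either WT Teff library or without either KO Treg library. Without KO Teff replicate 1 that of Mcm10 was lost, as was that of Cdc6 without either WT Treg library. Cdc45, a core part of the active helicase, had 81.9 and 95.9 in KO Teff, against 143 and 138 in WT Teff (adjusted p = 0.0999). Cdt1, the CDC6 partner, had 1043.8 and 930 in KO Teff, against 990 and 1108 in WT Teff, groups that overlap (log2 fold change -0.09, 95% interval -0.33 to 0.16). None of the 4 GINS subunits was called. Gins2 had 273 and 216 in KO Teff against 303 and 406 in WT Teff (adjusted p = 0.120), and Gins4 had 389 and 443 against 418 and 389. Gins3 had 114 and 96.4 in KO Teff against 116 and 95.4 in WT Teff, nearly the same pair. Gins1 had 42.5 and 53.5 against 45.8 and 23.9, groups that overlap. Gins2 shares 2758 exon bases with Gse1 on the opposite strand, and the labels name no step that marks strand, so its value is uncertain. Gse1 averaged 1307 in KO Teff and 2004 in WT Teff.

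Among genes of single-strand binding and Okazaki fragments, 1 of 5 was called (20.0%, against 5.08% of all tested genes called lower). Lig1, the ligase that seals Okazaki fragments (chromosome 7, 13277283 to 13311433), had 386 and 414 in KO Teff, against 644 and 678 in WT Teff (log2 fold change -0.72, SE 0.10, adjusted p = 0.00752). Its adjusted p was 0.0533 when only the 2 Teff groups were fitted and below 0.05 under the other 17 alternatives. Lig1 shares 247 exon bases with Zswim9 on the opposite strand, which averaged 210 in KO Teff and 241 in WT Teff. In Treg, Zswim9 averaged 269 in KO and 21.1 in WT. Its part in the Lig1 values of any group, and so in comparisons with Treg below, cannot be read without strand. Fen1, the flap nuclease of the same step, had 371 and 319 in KO Teff, against 335 and 320 in WT Teff. These overlap (log2 fold change 0.07, 95% interval -0.19 to 0.34). The single-strand binding subunits Rpa1, Rpa2 and Rpa3 had log2 fold changes of -0.06, -0.09 and 0.03, and all 3 intervals lay between -0.36 and 0.34. No polymerase or primase gene of the 5 measured was called, and their log2 fold changes ran from -0.27 for Pole, the catalytic subunit of the leading strand polymerase, to 0.20 for Pold1, that of the lagging strand polymerase. Pole had 229 and 261 in KO Teff, against 284 and 306 in WT Teff (adjusted p = 0.242). Among clamp and clamp loader genes none was called either. Pcna, the clamp, had 3565 and 3141 in KO Teff, against 3702 and 4067.5 in WT Teff (adjusted p = 0.184). Rfc1, the large loader subunit, had 1371 and 1491 in KO Teff, against 1196 and 1107 in WT Teff, the opposite order to most members (log2 fold change 0.31, adjusted p = 0.0762). Rfc2 had 884 and 998 in KO Teff, against 1001 and 895 in WT Teff.

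Among the regulators, E2f2, a member of the E2F activator family (chromosome 4, 136172394 to 136196057), had 672 and 541 in KO Teff, against 1328 and 1181 in WT Teff. Both KO values lay far below both WT values (log2 fold change -1.05, SE 0.12, adjusted p = 0.00482, below 0.05 under all 18 alternatives). E2f1, of the same family, had 136 and 110 in KO Teff, against 189 and 179 in WT Teff (adjusted p = 0.0902). Neither of the cyclin E genes, which start S phase with CDK2, was called. Ccne1 had 93.5 and 116 in KO Teff against 117 and 135 in WT Teff, and Ccne2 had 126 and 59.7 against 94.2 and 107. Uhrf1, which brings the maintenance DNA methyltransferase to newly made DNA, had 276 and 255 in KO Teff, against 479 and 399 in WT Teff (log2 fold change -0.72, SE 0.12, adjusted p = 0.0147). Its call was lost without KO Teff replicate 2 or WT Teff replicate 1. Dnmt1, that methyltransferase, had 2250.4 and 2891 in KO Teff, against 2736 and 2669.7 in WT Teff (log2 fold change -0.08, 95% interval -0.34 to 0.17). Chaf1b, a subunit of the histone chaperone CAF-1, had 265 and 182 against 245 and 295, and Slbp, which binds histone mRNA, 842 and 844 against 1071 and 964 (adjusted p = 0.459 and 0.121).

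Among checkpoint and repair members, Brca1 gave the least certain value. Brca1, which acts in repair of broken forks, had 27.0 and 143 in KO Teff, against 230 and 86.3 in WT Teff. The 2 KO libraries differed 5.30-fold, the widest spread of any member in any group, so the log2 fold change of -1.16 carried a 95% interval of -2.91 to 0.58. Clspn, a mediator of the replication checkpoint, had 159 and 192 in KO Teff, against 247 and 123 in WT Teff. Tipin, its partner at the fork, had 250 and 228 against 229 and 233 (log2 fold change 0.05, 95% interval -0.30 to 0.39).

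**Figure D2:**
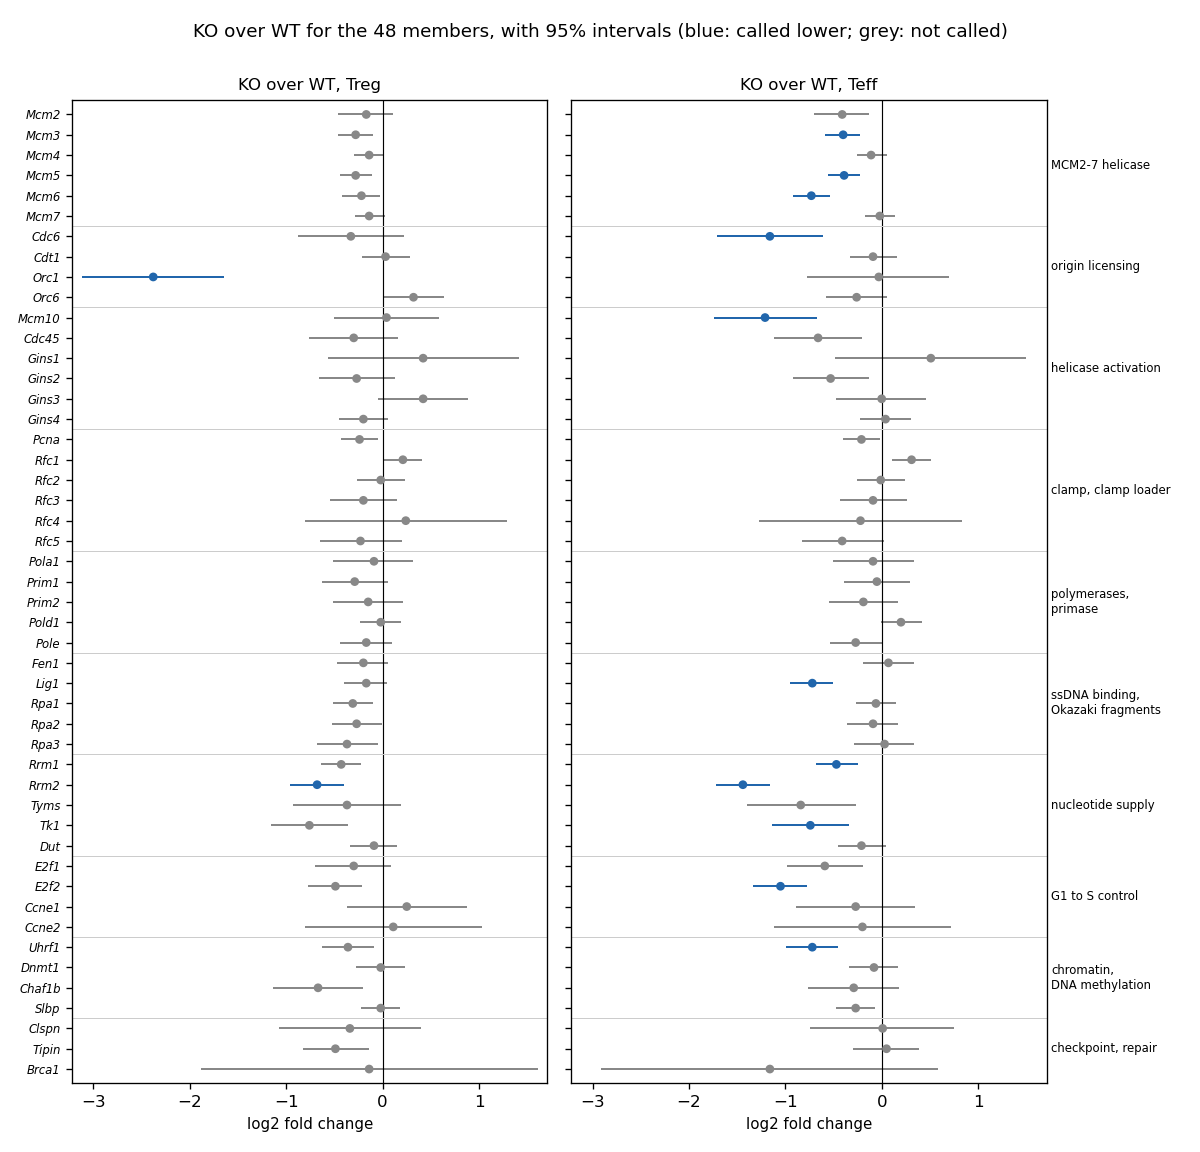
Log2 fold change of KO over WT (x axis) for the 48 members by role (y axis), in Treg on the left and Teff on the right. Points are limma estimates from 2 libraries per group and lines their 95% intervals, blue where called lower. The 11 blue members of Teff run from Rrm2 (-1.44) to Mcm5 (-0.39), and the 2 of Treg are Orc1 (-2.38) and Rrm2 (-0.68).

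The second comparison asked the same of Treg. In KO Treg 2 of the 48 members fell (4.17%), and none rose, by limma. Of all tested genes 0.779% were called lower and 0.674% higher. At an unadjusted p below 0.05, 15 members were lower and 1 higher, against 8.18% and 6.52% of all tested genes. Both KO libraries lay below both WT libraries for 32 members (66.7%), as did 25.9% of all tested genes. The reverse held for Gins3, Orc6 and Rfc1 (6.25%, against 22.8%). Without any single Treg library no member was called, and without any single Teff library 1 was.

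Orc1, the largest subunit of the origin recognition complex (chromosome 4, 108579423 to 108614833), changed most. It had 41.4 and 38.5 in KO Treg, against 235 and 192 in WT Treg (log2 fold change -2.38, SE 0.31, adjusted p = 0.0160). WT Treg stood apart from the other 3 groups, since Teff held little of it: 11.7 and 20.1 in KO Teff and 17.1 and 14.6 in WT Teff. Removing 1 Treg library, whichever it was, ended the call (adjusted p up to 0.155), with log2 fold changes between -2.53 and -2.24. The authors' deposited table gave a log2 fold change of -2.41 and an adjusted p of 5.69e-06. Orc1 shares 376 exon bases with Gm12743 on the opposite strand, whose part in the value cannot be read without strand. Orc6, the smallest subunit of the complex, had 271 and 255 in KO Treg, against 217 and 205 in WT Treg, an order opposite to Orc1 (adjusted p = 0.348).

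Rrm2 had 258 and 253 in KO Treg, against 439 and 383 in WT Treg (log2 fold change -0.68, SE 0.12, adjusted p = 0.0463). Its groups did not overlap, but the call was lost in 14 of the 18 alternatives, including the removal of any single library. The next members by p were not called. Rrm1 had 921 and 928 in KO Treg, against 1217 and 1276 in WT Treg (log2 fold change -0.43, adjusted p = 0.0784). Tk1 had 375 and 394 in KO Treg, against 609 and 698 in WT Treg (log2 fold change -0.76, adjusted p = 0.0923). E2f2 had 818 and 884 in KO Treg, against 1210.8 and 1177 in WT Treg (log2 fold change -0.49, adjusted p = 0.115). In each of these the 2 KO libraries were close to each other and below both WT libraries. Mcm5 had 1327 and 1306 in KO Treg, against 1536 and 1654 in WT Treg (adjusted p = 0.132). All 6 MCM2-7 genes had both KO Treg libraries below both WT ones, as did 25.9% of all tested genes. Their log2 fold changes lay between -0.28 and -0.14, and none was called. The 3 RPA genes had the same order of libraries, at -0.31 for Rpa1, -0.27 for Rpa2 and -0.37 for Rpa3 (adjusted p from 0.174 to 0.325). Mcm10, called in Teff, had 88.2 and 98.8 in KO Treg, against 105 and 78.6 in WT Treg, groups that overlap.

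The authors' deposited table called 13 of the 48 members lower in KO Teff and 5 lower in KO Treg. Of all genes with an adjusted p in the authors' deposited table, it called 6.27% lower in KO Teff and 1.87% lower in KO Treg. They include the 11 and 2 called here. The others were Mcm2 and Tyms in Teff, and E2f2, Rrm1 and Tk1 in Treg.

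The third comparison tested whether the KO difference itself differed between Treg and Teff. For none of the 48 members did it pass (limma, adjusted p 0.147 or above). At an unadjusted p below 0.05, 9 differed, 2 of them with the lower value in Treg (4.17%) and 7 with the lower value in Teff, against 3.87% and 6.49% of all tested genes. The share with the lower value in Treg is thus near the background. By adjusted p, 0.0225% of all tested genes were called with the difference higher in Treg and 0% with it lower. Orc1 had the smallest p, with a difference of -2.35 between its log2 fold changes in Treg and Teff (95% interval -3.39 to -1.31, adjusted p = 0.147). The differences were 0.76 for Rrm2, 0.51 for Mcm6, 0.55 for Lig1, 1.24 for Mcm10 and 0.56 for E2f2, in each case with the lower fold change in Teff (adjusted p from 0.178 to 0.316). For Tk1 and Rrm1 the differences were -0.02 (95% interval -0.59 to 0.55) and 0.04 (-0.27 to 0.34). Across the 48 members the log2 fold changes in Treg and Teff, which share no library but share the normalization, had a Pearson r of 0.20 and a Spearman rho of 0.32, or 0.45 and 0.37 without Orc1. These are descriptions over genes, which are not independent replicates.

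**Figure D3:**
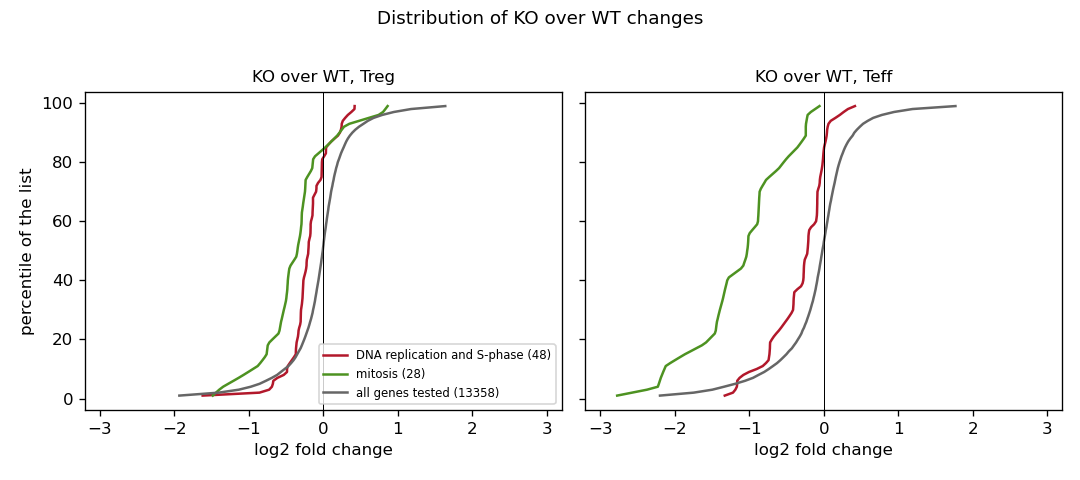
Percentiles (y axis, 1 to 99) of the log2 fold change of KO over WT (x axis) for the 48 replication members (red), 28 mitosis genes (green) and all 13358 tested genes (grey), in Treg on the left and Teff on the right. The red line lies left of the grey over most of its range, with medians of -0.20 in Treg and -0.22 in Teff. The green medians are -0.35 and -1.03.

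Genes of mitosis, the cell cycle stage that follows, were set beside the replication genes. In KO Teff 13 of 28 tested mitosis genes fell (46.4%) and none rose, where 5.08% and 1.84% of all tested genes were called lower and higher. Their median log2 fold change was -1.03, where the replication genes had 22.9% called lower and a median of -0.22. Mki67, a marker of cycling cells, averaged 874 ± 91.7 in KO Teff and 2129.7 ± 28.7 in WT Teff (SD, n = 2 each). Top2a, the topoisomerase of dividing cells, averaged 524 ± 59.5 and 1064 ± 139. Both fell (adjusted p = 0.000844 and 0.00570), each by a log2 fold change beyond -1, which among replication genes held for Rrm2, E2f2, Mcm10 and Cdc6 among those called. In KO Treg 1 of 28 mitosis genes fell (3.57%, against 0.779% of all tested genes), with a median of -0.35. It was Mki67 (limma adjusted p = 0.0408). No test between the lists was run.

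Other genes of replication, in 6 lists of 130 genes that hold no member, added 126 tested genes. In KO Teff 11 of them fell (8.73%) and 2 rose, where 5.08% and 1.84% of all tested genes were called lower and higher. The higher count is thus near the background. The median log2 fold change of the 126 was -0.08. Pclaf, a PCNA-binding factor, averaged 120 ± 10.6 in KO Teff and 329 ± 26.3 in WT Teff (SD, n = 2 each; log2 fold change -1.45, adjusted p = 0.00276). Hells, a chromatin remodeller, averaged 102 ± 35.4 and 486 ± 143 (log2 fold change -2.26, adjusted p = 0.0112). Origin firing factors Ticrr and Mtbp fell, with log2 fold changes of -1.42 and -0.60 (adjusted p = 0.0224 and 0.0335), as did the nuclease gene Exo1 (log2 fold change -2.27, adjusted p = 0.0334). Of the G1 to S list, Ccna2, the cyclin of S phase, and E2f8, a repressor of the E2F family, had log2 fold changes of -1.38 and -1.44, both called (adjusted p = 0.0216 and 0.0378). In the list of checkpoint and recombination genes, the 3 with the smallest p were Fancd2, Chek1 and Rad54l, which fell with log2 fold changes of -0.93, -0.99 and -2.19 (adjusted p = 0.0314, 0.0344 and 0.0345). Palb2, of the same list, rose by 0.81 (adjusted p = 0.0466).

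Among genes of nucleotide supply outside the members, 27 were tested, and none fell and 1 rose in KO Teff by limma. Of all tested genes 5.08% were called lower and 1.84% higher. The median log2 fold change of the 27 was 0.08, with 12 below 0. At an unadjusted p below 0.05, 3 of the 27 were lower and 4 higher, against 13.7% and 7.85% of all tested genes. The lower count is thus near the background. The riser was Tk2, the mitochondrial thymidine kinase, which averaged 1379 ± 4.66 in KO Teff and 951 ± 82.8 in WT Teff (SD, n = 2 each; log2 fold change 0.54, adjusted p = 0.0128). Impdh2, of guanine nucleotide synthesis, averaged 1912 ± 27.0 and 1508 ± 151 (log2 fold change 0.35, adjusted p = 0.0517). Myc, which belongs to the G1 to S list and not to these 27 genes, averaged 2242 ± 44.1 in KO Teff and 1909 ± 46.6 in WT Teff (log2 fold change 0.23, adjusted p = 0.0622). In KO Treg 2 of the 126 fell (1.59%, against 0.779% of all tested genes) and none rose. They were Rad54l, at 26.6 ± 5.89 in KO Treg and 169 ± 20.0 in WT Treg, and Chek1, a checkpoint kinase, at 123 ± 9.65 and 276 ± 9.29 (adjusted p = 0.0464 and 0.0483).

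The sums of some marker lists, of Treg and of other cell types, differed with genotype in these sorts, while others overlapped. Scaled to 1000000 per library, the 6 Treg markers summed to 800 to 897 in KO Teff and 1188 to 1276 in WT Teff. Of the 6, 5 were called, where 5.08% and 1.84% of all tested genes were called lower and higher. Ikzf2, Ctla4, Tnfrsf18 and Il2rb were lower. Foxp3 was called higher, with 2.06 and 8.29 in KO Teff and 0 in both WT Teff libraries, all below 10. In Treg the same 6 markers summed to 4184 to 4239 in KO libraries and 4579 to 4592 in WT libraries, with none called. The 5 T cell markers summed to 3211 to 3226 in KO Teff and 3414 to 3461.5 in WT Teff, and to 2896 to 2992 in KO Treg and 2912 to 3020.4 in WT Treg, again with none called. Markers of CD8 and NK cells, 5 genes with Nkg7 called lower, summed to 67.7 to 72.3 in KO Teff and 99.3 to 104 in WT Teff, and 5 dendritic cell markers to 61.4 to 83.3 in KO Teff and 93.3 to 131 in WT Teff. In Treg the CD8 and NK sums were 42.3 to 42.5 in KO and 42.1 to 46.1 in WT libraries, and the dendritic sums 48.4 to 55 in KO and 63.1 to 65.1 in WT libraries. The sums of 4 macrophage and monocyte markers ran from 21.6 to 28.4 in KO Teff and from 29.5 to 55.8 in WT Teff. In Treg those 4 summed to 242 to 255 in KO libraries and 404 to 417 in WT libraries, while none of them was called. Among CD8 and NK markers Ncr1 was at 0 in all 4 Treg libraries, and Clec9a of the dendritic list was at 0 in both KO Treg libraries. B cell markers summed to 26.7 to 27.2 in KO Treg and 18.1 to 19.5 in WT Treg, and to 4.61 to 13.4 in KO Teff and 6.17 to 6.40 in WT Teff. Pax5 had 178 and 162 in KO Treg against 5.74 and 2.87 in WT Treg, and 9.06 and 168 in KO Teff against 12.6 and 17.7 in WT Teff. Without Pax5 the B cell sums were 17.0 to 17.5 in KO Treg and 17.7 to 19.4 in WT Treg, and 4.12 to 4.22 in KO Teff and 5.23 to 5.70 in WT Teff. Erythroid markers summed to 20.5 to 22.1 in KO Treg and 22.1 to 29.1 in WT Treg, and to 2.42 to 2.59 in KO Teff and 3.13 to 5.00 in WT Teff. Plasma cell markers summed to 70.0 to 73.1 in KO Treg and 74.9 to 75.9 in WT Treg, and to 18.1 to 20.3 in KO Teff and 27.9 to 29.6 in WT Teff, with Jchain called lower in KO Teff. The part of such cells in the replication gene differences was not tested.

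The last comparisons set Treg against Teff within a genotype, on the same 8 libraries as the first 2 comparisons. Treg held more of several replication mRNAs than Teff. In KO mice 18 of the 48 members were higher in Treg (37.5%) and 2 lower (4.17%), where 15.7% and 11.2% of all tested genes were called. In WT mice 13 were higher (27.1%) and 2 lower (4.17%), where 13.5% and 11.6% of all tested genes were called. The median log2 fold change of Treg over Teff was 0.30 in KO and 0.23 in WT. Called in either direction were 20 members in KO, but 13 without KO Treg replicate 1 and 12 without KO Treg replicate 2, and 15 in WT, but 9 without WT Treg replicate 2. The split in WT also moved with scaling, to 15 higher and 0 lower with equal library totals and to 12 and 4 with quantile normalization.

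Orc1 stood furthest apart in WT, with 235 and 192 in WT Treg, against 17.1 and 14.6 in WT Teff (log2 fold change 3.67, SE 0.31, adjusted p = 0.000232). In KO it had 41.4 and 38.5 in KO Treg, against 11.7 and 20.1 in KO Teff (log2 fold change 1.32, adjusted p = 0.0189). Mcm6 had 1748 and 1920.1 in KO Treg, against 701 and 772 in KO Teff, with 2149 and 2130.1 in WT Treg, against 1183 and 1258 in WT Teff. Treg and Teff did not overlap in either genotype (log2 fold changes 1.32 in KO and 0.81 in WT, adjusted p = 4.43e-05 and 0.000494). Mcm5 was higher in Treg by 0.71 in KO and 0.59 in WT (adjusted p = 0.000362 and 0.00106). Tk1 was higher by 1.35 in KO and 1.37 in WT (adjusted p = 0.00109 and 0.00125). Lig1 was higher by 1.11 in KO and 0.56 in WT, and Uhrf1 by 1.09 and 0.72, all 4 called. In total 10 of the 48 members were called higher in Treg in both genotypes, as were 10.7% of all tested genes.

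Some members were called higher in Treg in KO mice and had near equal levels in WT mice. Rrm2 had 258 and 253 in KO Treg, against 152 and 157 in KO Teff (log2 fold change 0.72, adjusted p = 0.00377). In WT mice it had 439 and 383 in Treg, against 429 and 412 in Teff, and the 2 cell types overlapped (log2 fold change -0.04, 95% interval -0.31 to 0.24). E2f2 likewise had a log2 fold change of 0.50 in KO (adjusted p = 0.0200) and of -0.07 in WT (95% interval -0.35 to 0.21). The change between genotypes in these gaps is the same difference as in the third comparison, which did not pass for either gene. The lower members were Rfc1 in both genotypes (log2 fold changes -0.39 in KO and -0.29 in WT, adjusted p = 0.0127 and 0.0426), Rpa1 in KO (-0.51, adjusted p = 0.00525) and Ccne1 in WT (-0.88, adjusted p = 0.0475). The calls in WT of Rfc1 and Ccne1 rest on adjusted p close to 0.05.

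**Figure D4:**
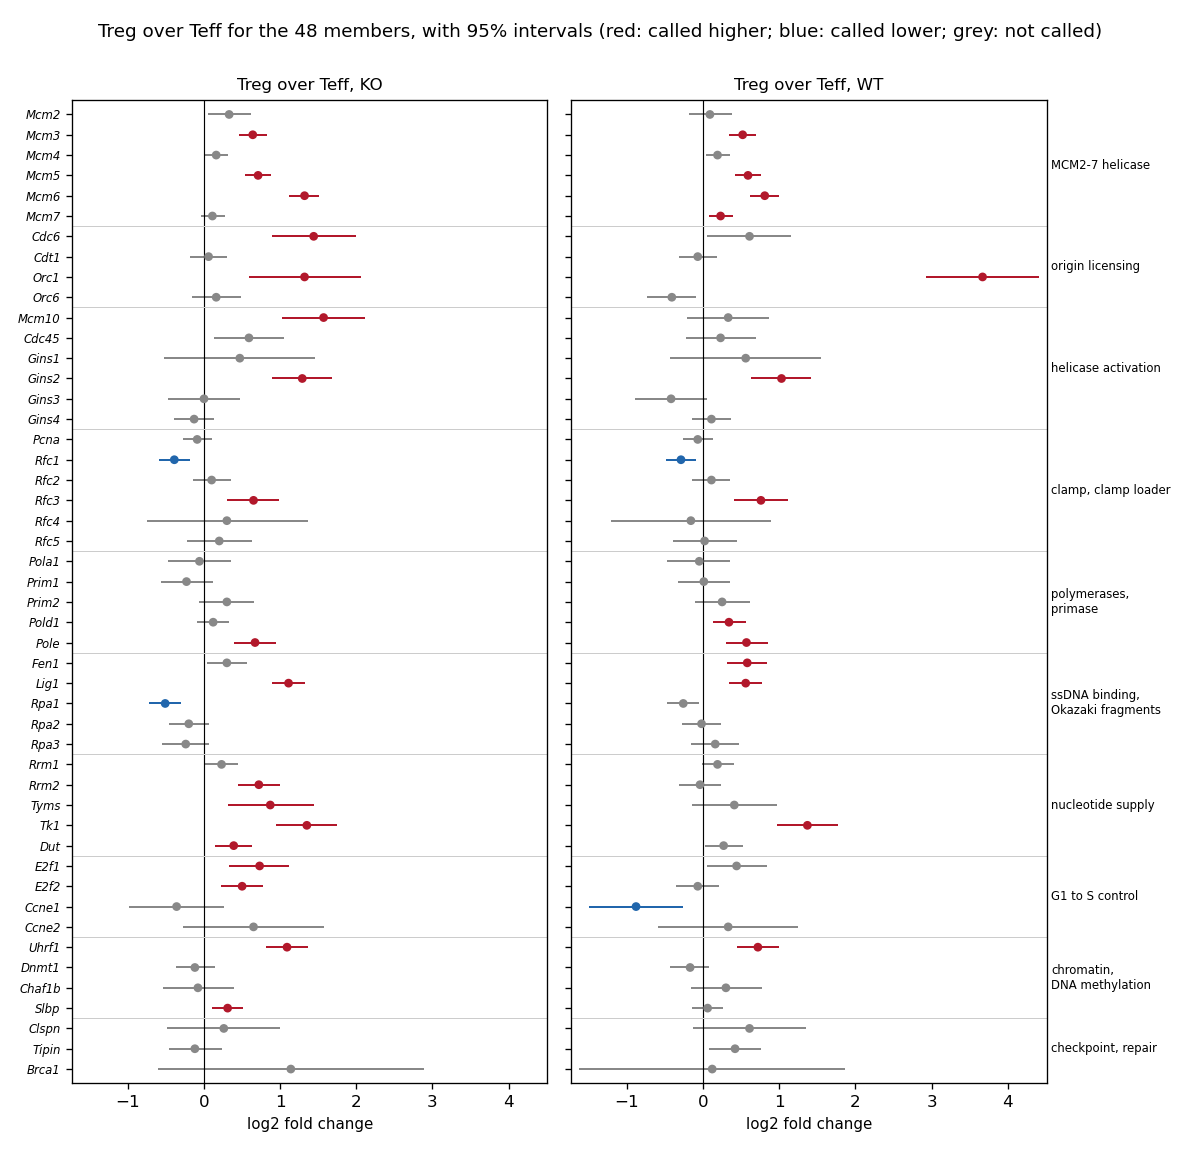
Log2 fold change of Treg over Teff (x axis) for the 48 members by role (y axis), in KO mice on the left and WT mice on the right. Points are limma estimates from 2 libraries per group and lines their 95% intervals, red where called higher and blue where called lower in Treg. Orc1 lies at 1.32 in KO and 3.67 in WT, and Mcm10 at 1.57 in KO and 0.33 in WT.

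Levels were compared between members only per kilobase of annotated exon. On that scale Pcna was the strongest in every group, with a level of 1307 in KO Treg, 1546 in WT Treg, 1397 in KO Teff and 1619 in WT Teff. Mcm4 and Rpa1 followed, Mcm4 ahead in Treg and Rpa1 ahead in Teff. Mcm6 ranked 4 of 48 in KO Treg and 5 in WT Treg, against 14 in KO Teff and 11 in WT Teff. Orc1 was the weakest in KO Treg, at 11.5, and ranked 35 in WT Treg, at 61.4. Exon length counts every annotated exon of a gene, so these levels are approximate. Annotated exons of 15 members overlap those of another gene, among them Fen1, Ccne2, Rfc2, Rfc5, Mcm7 and Tk1, and pseudogenes named after Pcna and Tyms are annotated. Their values can include reads of those genes.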

How the data were processed

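Polyadenylated RNA of 8 libraries was read as 50-base single-end reads, per the labels' protocols, which name neither a strand-marking step nor molecular identifiers. The submitters' processing notes name DESeq2 1.28.1, R 4.0.3, Salmon 0.14.1, Trim Galore 0.4.4 and the mm10 build. The authors deposited 1 signal column per library, normalized read numbers that are not whole, so no count test was run. Counts behind the values are unknown, and no counting interval is given. They also deposited log2 fold changes and adjusted p-values of KO over WT, used only where the authors' deposited table is named.

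limma 3.58.1 (R 4.3.3) was fitted to log2(value + 1) (trend and robust empirical Bayes), with 1 coefficient per group over all 8 libraries and 4 residual degrees of freedom, on genes with at least 10 in at least 2 libraries. P-values were adjusted by Benjamini-Hochberg over all tested genes within each of 5 contrasts. The fit was tested on simulated data, and intervals are limma's 95% intervals. Members and lists were chosen with earlier results of these data known. Coordinates are from GENCODE M21 on GRCm38, promoters from RefSeq (the window nearest the start of a principal GENCODE transcript). By rule, values per library go to the members of smallest p in each contrast (up to 10 in Teff, 6 in Treg, 6 for the difference and 4 per Treg against Teff contrast), the 3 of largest p in Teff and 1 or more per role, and up to 3 genes of smallest p per other list in Teff and 2 in Treg are named. Further members and Palb2 were added after their values were seen. Alternatives changed the pseudocount, filter, scaling, shrinkage, groups fitted, replicate block, and left out each library. Python 3.11.15 with pandas 2.3.3 and matplotlib 3.10.9 made the tables and figures.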

Additional observations from a re-analysis of the deposited data

How the results depend on the processing

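For KO against WT in Teff, where 11 members were called, 7 were without trend or robust shrinkage and 3 with only the compared groups fitted. Leaving out 1 library gave 4 to 7 there. In Treg, where 2 were called, 1 was with no filter, equal library totals, upper-quartile scaling, quantile normalization, only the compared groups or the replicate block, and 0 to 1 without 1 library. Treg against Teff, with 15 called for WT and 20 for KO in either direction, ran from 9 to 14 called members for WT and from 12 to 21 for KO without 1 library. The member median in Teff was -0.15 with quantile normalization and -0.29 to -0.17 without 1 library. That of the difference of effects was 0.05 to 0.11 without 1 library. Treg over Teff in WT had a median of 0.28 with equal library totals, 0.16 with quantile normalization and 0.17 to 0.24 without 1 library, and in KO 0.38 and 0.19 with those scalings. A library left alone in its group was assumed to vary like the others.

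Signs turned for 3 uncalled members in Teff. Rfc2 gave 0.01 with upper-quartile scaling, 0.01 with quantile normalization, 0.08 without KO replicate 1 and 0.07 without WT replicate 1 (-0.10 to 0.08 over single libraries). Gins3 gave 0.01 and 0.14 with those scalings, 0.11 without KO replicate 2 and 0.13 without WT replicate 1 (-0.14 to 0.13). Clspn gave -0.13 without KO replicate 2 and -0.50 without WT replicate 2 (-0.50 to 0.51). No other gene value tried changed sign.

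Deviations of same-numbered libraries correlated between -0.04 and 0.06 across groups. With 1 replicate difference per group, this cannot tell whether equal replicate numbers mark paired libraries. With the replicate block 8 members were called in Teff, 1 in Treg, 0 for the difference, and for Treg against Teff 13 (WT) and 18 (KO). The cause of these shifts was not tested. What depth limits could not be read, since the counts behind the values are unknown.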
